A study of Mus musculus with 8 samples.

Results

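Glomeruli of mice that had lost talin 1 in podocytes were compared with and without valproic acid (VPA), using the 3 microarrays of the VPA group against the 3 of the vehicle group, 6 of the 8 arrays in the series. The arrays were taken by their titles. Both groups carried the Tln1 Pod-rtTA TetO-Cre genotype, in which a podocyte-driven reverse tetracycline transactivator switches on Cre when doxycycline is given. All mice, the 2 controls included, had 3 weeks of doxycycline from the age of 8 weeks and were 13 weeks old. Vehicle or VPA followed for 2 weeks in the Tln1 mice. The labels name no such treatment for the controls and do not spell out the controls' genotype. RNA came from whole glomeruli, so every cell type of the isolate contributed to each value although Cre acts in podocytes, and a smaller share of cells of a type cannot be told apart from less RNA per cell. Whether each array came from its own animal is not stated, so a p-value here weighs a difference only against array-to-array spread, part or all of which may be technical.

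Talin 1 couples integrins to the actin cytoskeleton, and podocytes depend on this link to hold their foot processes on the glomerular basement membrane. VPA, a branched short-chain fatty acid used as an antiepileptic drug, inhibits class I histone deacetylases, the enzymes that remove acetyl groups from histones and so lower the accessibility of chromatin. Inhibitors of this class are known in cultured cells to raise Cdkn1a and to alter immediate early genes, the quickly induced transcription factors such as Egr1 and Fos.

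Values are log2 expression from robust multi-array averaging (RMA), in which a difference of 1 is a doubling, for 22180 genes with 1 probe set each. The 8 arrays fell into 2 sets. The first held 5 arrays, namely control 1 and the Tln1 arrays numbered 1 and 2, and the second held control 2, vehicle 3 and VPA 3. Between 4.81% and 6.29% of probe sets held exactly the same value in any pair of arrays from the first, against 9.09% to 10.5% for pairs from the second and at most 0.00484% for pairs across the sets. Same-numbered arrays lie in the same set, so each comparison below is also given as VPA 1 minus vehicle 1, VPA 2 minus vehicle 2 and VPA 3 minus vehicle 3. Of 40 podocyte markers 37 were measured, and 35 of them stood above the median gene mean of 4.92. The same held for all 25 measured proximal tubule markers, whose mean was 10.01 to 11.80 over the 8 arrays, and for none of the 17 lymphocyte markers. The mean of 3 Y-linked genes (Kdm5d, Uty and Eif2s3y) was 5.77, 6.996 and 2.72 in vehicle 1 to 3, 4.85, 5.83 and 2.56 in VPA 1 to 3, and 3.57 and 2.70 in the controls. It was thus lower in the VPA array of each same-numbered pair, and the labels do not give the sex of the mice.

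No gene passed limma's test at an adjusted p below 0.05 (0% of 22180 genes, Benjamini-Hochberg), and the smallest adjusted p was 1. With the replicate number as a block no gene passed either, with a smallest adjusted p of 0.651. At an unadjusted p below 0.05 limma counted 280 genes (1.26%), of which 185 were higher (0.834%) and 95 lower (0.428%) with VPA. The replicate block raised that count to 1355 genes (6.11%), 810 higher (3.65%) and 545 lower (2.46%). If no gene differed, a share of 0.05 of all genes would on average fall below that p. The share of 1.26% lies below that and 6.11% slightly above it, so neither count by itself marks changed genes. Leaving out 1 array gave from 175 genes (without VPA 1) to 663 (without vehicle 3), the first array set alone 1720 and array weights 2383. All 3 VPA arrays stood above all 3 vehicle arrays in 440 genes (1.98%) and below them in 348 (1.57%). All 3 same-numbered differences were above 0 in 2721 genes (12.3%) and below 0 in 2222 (10%). The excess of higher genes depended on the scaling: with arrays centred on their medians the counts were 2367 higher and 4109 lower, and after quantile normalization 2934 and 3389. Genes without overlap likewise numbered 476 higher and 539 lower after centring, and 550 and 485 after quantile normalization. Mean differences above 1, a doubling, were seen in 29 genes (0.131%) and below -1 in 18 (0.0812%). The median residual SD of a gene was 0.21 with groups alone and 0.11 with the replicate block. In what follows, "higher" and "lower" describe these arrays, since no gene passed the adjusted test.

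**Figure D1:**
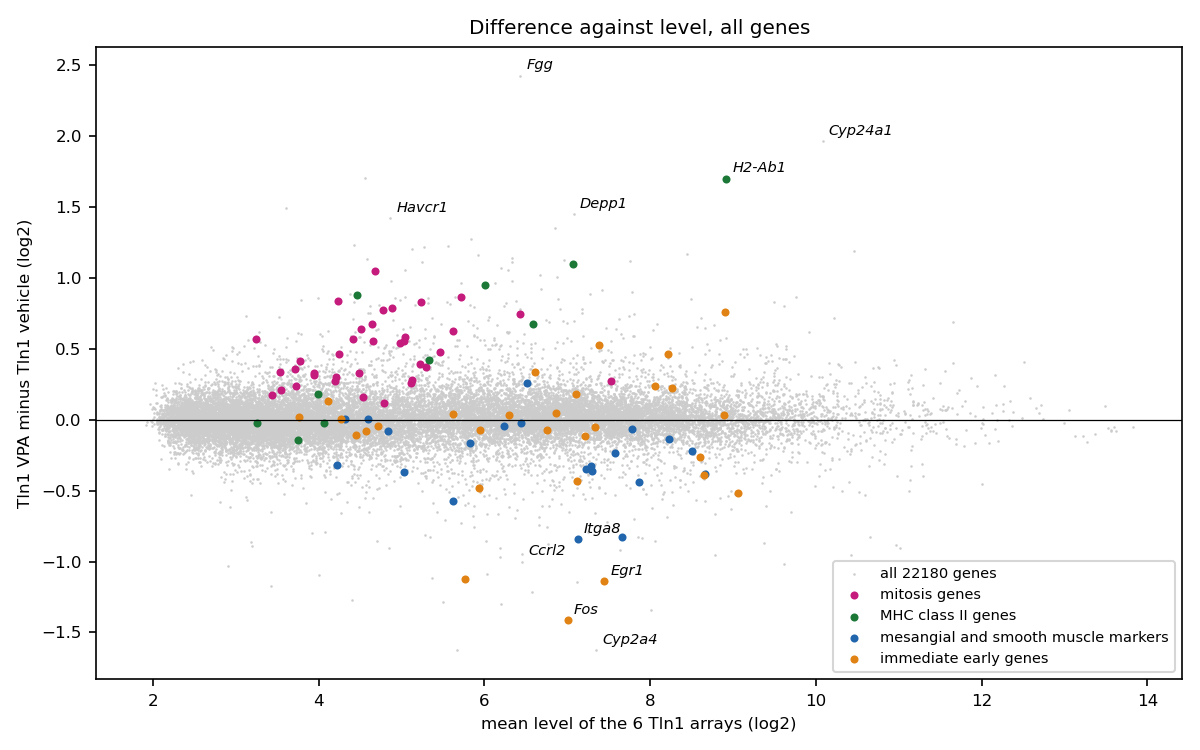
Difference between the group means (Tln1 VPA minus Tln1 vehicle, log2, vertical axis) against the mean level of the 6 Tln1 arrays (log2, horizontal axis) for 22180 genes in grey, with 4 gene lists in colour. All 36 mitosis genes lie above 0, Fgg is the highest point at 2.42, and Egr1, Fos and Fosb lie below -1.

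The histone deacetylases themselves differed little between the groups. All 11 were measured, 6 higher and 5 lower, with differences between -0.08 and 0.11 and a median of 0.01, against a median of 0.00 over all genes. None had arrays that did not overlap. Hdac1, a catalytic subunit of the Sin3 and NuRD corepressors, stood at 8.64, 8.55 and 8.87 in vehicle and 8.73, 8.67 and 8.79 in VPA. The groups overlapped, and the difference of 0.05 (SE 0.12) turned to -0.02 without vehicle 2. Hdac2, its close relative, differed by 0.01 (SE 0.13), with a sign that changed under several settings, and Hdac3, the subunit of the NCoR complex, by 0.11 (SE 0.14). Hdac8 differed by 0.05 (SE 0.16), and by -0.12 without vehicle 3. The 19 measured acetyltransferases, acetyl-lysine readers and corepressors had differences from -0.10 to 0.12 with a median of 0.01. Tln1 itself, deleted in podocytes alone, stood at 8.95, 8.95 and 8.60 in vehicle, 8.76, 8.88 and 8.59 in VPA, and 8.97 and 8.64 in the controls. These ranges overlapped, and the labels do not say which part of the gene the probe set reads.

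Genes known to be induced by deacetylase inhibitors showed no common direction. Of 19 measured, 10 were higher and 9 lower with a median of 0.00, and 3 had VPA arrays all above the vehicle arrays (15.8%, against 1.98% of all genes). Those 3 were Clu, Mt1 and Mt2. Clu, which encodes the chaperone clusterin, stood at 9.39, 8.80 and 9.44 in vehicle and 10.24, 10.10 and 9.69 in VPA, a difference of 0.80 (SE 0.27, limma unadjusted p = 0.018). The VPA arrays were all higher, but VPA 3 exceeded vehicle 3 by only 0.25. Mt2, one of the metal-binding metallothioneins, was 10.15, 9.48 and 9.95 in vehicle and 11.45, 11.15 and 10.55 in VPA, a difference of 1.19 (SE 0.43). Mt1, a near-identical copy whose probes could share transcripts with Mt2, differed by 0.72 (SE 0.28). Cdkn1a, the p21 inhibitor of cyclin-dependent kinases, was 7.46, 6.59 and 7.74 in vehicle, 7.75, 7.57 and 8.40 in VPA, and 8.18 and 8.00 in the controls. VPA exceeded vehicle in each same-numbered pair, but VPA 2 stood below vehicle 3, and the mean difference was 0.64 (SE 0.33). Gadd45b, a stress-response gene of the same list, was lower by 0.53 (SE 0.32). The 7 cyclin-dependent kinase inhibitors had a median difference of 0.07, with 5 higher, and of 0.17 without VPA 3. The 19 measured neuronal genes that the repressor REST controls had a median of -0.03, which was 0.07 without VPA 3.

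Egr1, a zinc-finger transcription factor induced within minutes of a growth signal, ranked first by p among the genes named here. It stood at 7.91, 7.92 and 8.21 in vehicle, at 6.86, 7.20 and 6.56 in VPA, and at 5.96 and 6.44 in the controls. All VPA arrays were lower than all vehicle arrays and higher than both controls. The mean was 2.2 times as high in vehicle as in VPA, a log2 difference of -1.14 (SE 0.20, limma unadjusted p = 0.000624), and the same-numbered differences were -1.05, -0.71 and -1.65. Fosb and Fos, subunits of the AP-1 transcription factor, also had arrays that did not overlap. Fosb was 5.86, 5.93 and 7.20 in vehicle, 5.10, 5.24 and 5.27 in VPA, and 5.22 and 5.88 in the controls, a difference of -1.13 (SE 0.36). Fos was 7.22, 6.97 and 8.94 in vehicle and 5.79, 6.23 and 6.87 in VPA, a difference of -1.42 (SE 0.70). In both genes vehicle 3 was the highest array. The Fos controls were 4.94 and 7.21, further apart than the means of the Tln1 groups.

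The list of immediate early genes was split. Of 29 measured, 14 were higher and 15 lower with a median of -0.04, which was 0.12 without vehicle 3. Arrays did not overlap in 5 genes, all of them lower (17.2%, against 1.57% of all genes). Besides Egr1, Fosb and Fos these were Zfp36, which encodes an mRNA-destabilising zinc-finger protein, at -0.39 (SE 0.19), and Ier2, at -0.48 (SE 0.29). Among the members whose arrays overlapped, Fosl2, another AP-1 subunit, was higher by 0.53 (SE 0.26), and Ccn1, a matricellular target of the YAP coactivator, by 0.76 (SE 0.55). Among the feedback inhibitors of the ERK kinase pathway, 11 of 12 were higher, with a median of 0.14. That median was -0.00 without VPA 1, and the 3 same-numbered medians were 0.30, 0.16 and -0.02. Dusp6, a phosphatase that inactivates ERK, was 8.77, 8.36 and 8.17 in vehicle and 9.44, 9.16 and 8.70 in VPA. The groups overlapped because of VPA 3, yet each same-numbered difference was above 0.5, at 0.68, 0.79 and 0.53.

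**Figure D2:**
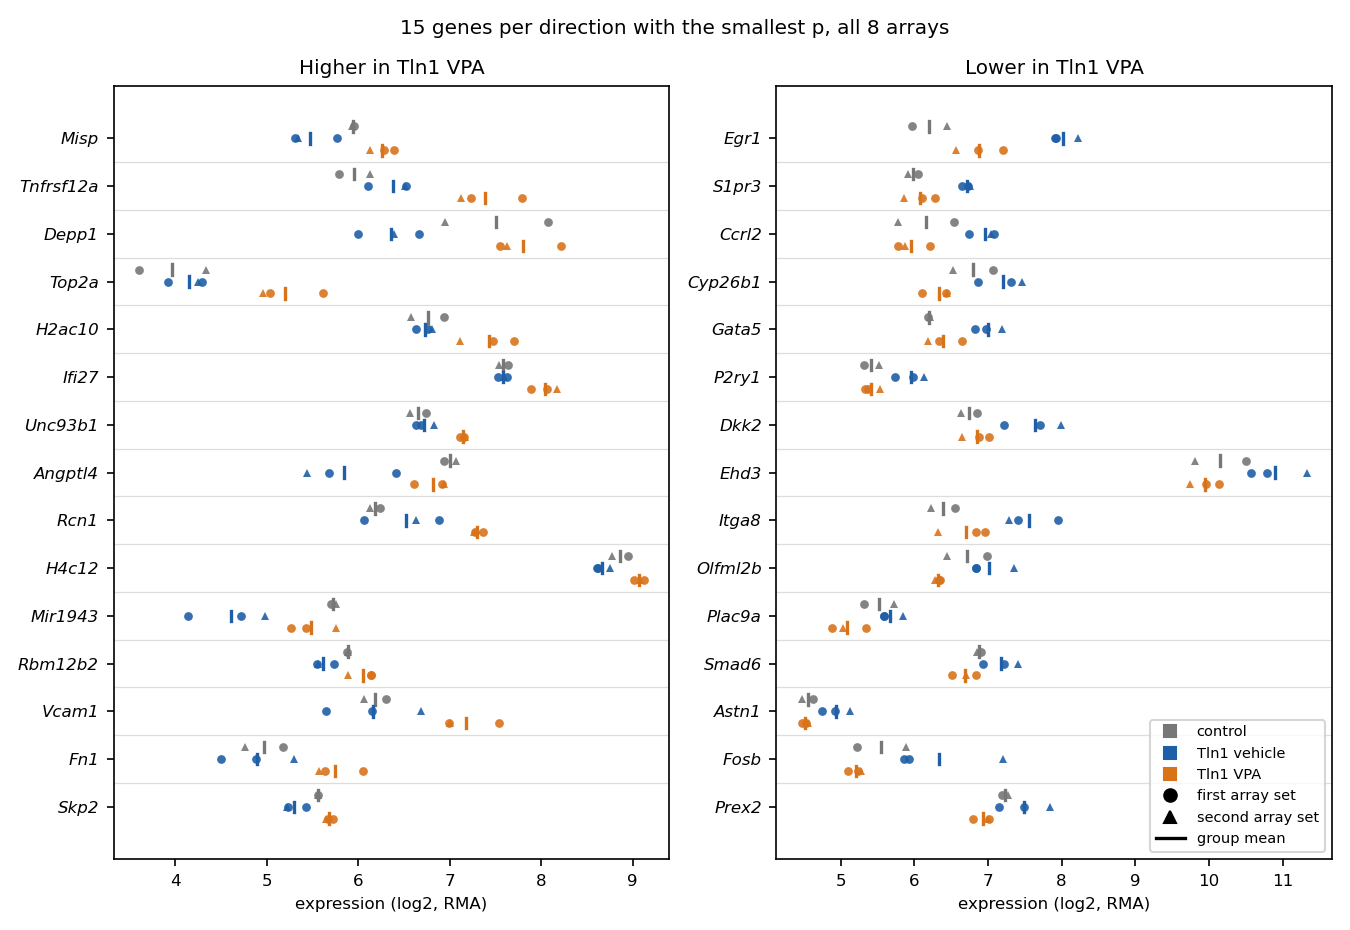
Log2 expression (horizontal axis) in all 8 arrays for 15 genes in each direction, ranked by p among genes whose Tln1 VPA and Tln1 vehicle arrays do not overlap and whose level is above the median. Grey marks controls, blue vehicle and orange VPA, circles the first array set and triangles the second, with vertical bars at group means; Egr1 shows vehicle arrays from 7.91 to 8.21 and VPA arrays from 6.56 to 7.20.

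Genes of mitosis all ran 1 way. Each of the 36 measured was higher with VPA, by 0.12 to 1.05 and a median of 0.44, where 51.3% of all genes were higher. In 28 of them all 3 same-numbered differences were above 0 (12.3% of all genes), and in 11 the arrays did not overlap (30.6%, against 1.98%). The list's mean level was 4.53, 4.40 and 4.35 in vehicle 1 to 3, 5.14, 4.90 and 4.67 in VPA 1 to 3, and 4.32 and 4.21 in the controls. Every VPA array was above every vehicle and control array. The same-numbered medians were 0.66, 0.42 and 0.30, and the list was highest in VPA 1. Only 11 of the 36 stood above the median gene mean, so most were measured at low signal. The mean of the macrophage markers was also higher in each VPA array than in the same-numbered vehicle array, and its part in the mitosis differences was not tested.

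Promoters of 31 of the 36 mitosis genes are in the RefSeq table (GRCm38.p6). Promoters of dividing-cell genes are known to carry CCAAT boxes and the cell cycle homology region, and those of Top2a, Anln and Mki67, the 3 members with the smallest p, are shown. Each stretch is the 250 bases before the transcription start, 5′ to 3′ on the gene's strand, at chr11:99024190-99024439 (minus strand) for Top2a, chr9:22389207-22389456 (minus strand) for Anln and chr7:135716380-135716629 (minus strand) for Mki67. Capitals mark CCAAT, or TTTGAA and TTCGAA, on either strand. TTCGAA is its own reverse complement, and no match of one motif overlaps another.
Top2a: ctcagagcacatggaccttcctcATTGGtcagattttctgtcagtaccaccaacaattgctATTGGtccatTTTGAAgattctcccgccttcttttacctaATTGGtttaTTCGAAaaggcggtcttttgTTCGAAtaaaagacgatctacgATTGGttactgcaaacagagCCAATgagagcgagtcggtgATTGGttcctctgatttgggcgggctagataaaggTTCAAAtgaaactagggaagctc
Anln: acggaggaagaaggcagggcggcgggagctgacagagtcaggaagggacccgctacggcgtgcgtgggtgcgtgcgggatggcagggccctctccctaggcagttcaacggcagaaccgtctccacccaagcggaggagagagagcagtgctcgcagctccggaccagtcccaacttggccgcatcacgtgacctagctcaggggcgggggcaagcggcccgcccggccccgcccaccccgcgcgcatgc
Mki67: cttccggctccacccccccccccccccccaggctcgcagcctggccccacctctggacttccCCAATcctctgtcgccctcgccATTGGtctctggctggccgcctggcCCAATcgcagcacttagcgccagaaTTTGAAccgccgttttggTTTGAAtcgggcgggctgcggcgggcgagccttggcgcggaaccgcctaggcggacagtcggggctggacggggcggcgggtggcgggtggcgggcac
The Top2a stretch holds 6 matches to CCAAT and 4 to TTTGAA or TTCGAA, and the Mki67 stretch holds 3 and 2. The Anln stretch holds neither, and Prc1 has 1 CCAAT before each of its 2 listed starts and TTTGAA before the second alone. CCAAT was present before at least 1 listed start in 23 of the 31 mitosis genes (74.2%), against 38.7% of 16990 measured genes with a promoter. TTTGAA or TTCGAA was present in 11 (35.5%, against 17.5%), and both were present in 10 (32.3%, against 6.42%). Genes with several starts had more chances of a match. A match describes these letters and does not show that a factor was bound.

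Top2a encodes the topoisomerase that untangles chromosomes before division. It stood at 4.29, 3.92 and 4.25 in vehicle, 5.62, 5.03 and 4.96 in VPA, and 3.60 and 4.34 in the controls. The lowest VPA array was above all others, and the VPA mean was 2.07 times the vehicle mean, a log2 difference of 1.05 (SE 0.25, limma unadjusted p = 0.00333). Mki67, the proliferation antigen that coats mitotic chromosomes, was 6.14, 5.59 and 6.46 in vehicle, 6.95, 6.72 and 6.75 in VPA, and 5.37 and 5.35 in the controls. All vehicle arrays were thus already above both controls, and VPA exceeded vehicle by 0.75 (SE 0.21). Ccna2, the cyclin A of S phase and G2, differed by 0.83 (SE 0.24), with same-numbered differences of 0.82, 1.04 and 0.64. Prc1, which bundles microtubules of the spindle midzone, differed by 0.78 (SE 0.24) and Anln, which encodes anillin of the cleavage furrow, by 0.64 (SE 0.16). Both had VPA arrays above all vehicle arrays. Misp, an actin-binding protein that positions the spindle, was not on the list but had the second-smallest p of the genes named. It was 5.31, 5.77 and 5.34 in vehicle, 6.39, 6.28 and 6.13 in VPA, and 5.95 and 5.94 in the controls. The controls lay between the groups, and the difference was 0.79 (SE 0.15, limma unadjusted p = 0.000935).

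DNA replication genes leaned the same way with smaller differences. Of 29 measured, 28 were higher with a median of 0.21, and the arrays did not overlap in 3 (10.3%, against 1.98% of all genes). That median was 0.11 without VPA 1 and 0.35 without VPA 3. The same-numbered medians were 0.38, 0.16 and 0.06, so the second array set showed little of it. Rrm2, the ribonucleotide reductase subunit made in S phase, was 4.59, 4.31 and 4.06 in vehicle and 5.68, 5.13 and 4.59 in VPA, a difference of 0.81 (SE 0.28). VPA 3 equalled the highest vehicle array to the second decimal. Mcm5 and Mcm7, subunits of the replicative helicase, differed by 0.82 (SE 0.34) and 0.33 (SE 0.14). Promoters of 26 of these genes are in the table. CCAAT stood before a listed start in 65.4% of the 26, against 38.7% of measured genes with a promoter. TTTGAA or TTCGAA was present in 23.1%, against 17.5%, and both motifs in 19.2%, against 6.42%. Skp2, a ubiquitin ligase subunit that marks the p27 inhibitor for degradation, was 5.24, 5.43 and 5.22 in vehicle and 5.73, 5.67 and 5.64 in VPA. Its arrays did not overlap, and the difference was 0.38 (SE 0.11). The histone genes H2ac10 and H4c12 were higher by 0.70 (SE 0.17) and 0.41 (SE 0.11), although clustered histone genes are near-identical copies and their probe sets may not tell them apart.

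Depp1, a gene that FOXO transcription factors and progesterone induce, had the smallest p of the named genes in the fit with the replicate block (unadjusted p = 4.93e-05; adjusted p = 0.651, limma). It stood at 6.67, 5.996 and 6.40 in vehicle, 8.22, 7.55 and 7.63 in VPA, and 8.08 and 6.94 in the controls. The vehicle arrays were below all others. VPA over vehicle was 2.73-fold, a log2 difference of 1.45 (SE 0.33), with same-numbered differences of 1.55, 1.56 and 1.23. Of 19 genes responsive to FOXO factors or glucocorticoids, 16 were higher with a median of 0.19, and in 7 the arrays did not overlap (36.8%, against 1.98% of all genes). The median was 0.38 without vehicle 3 and 0.32 without VPA 3. Zbtb16, a zinc-finger repressor induced by glucocorticoids, was 6.57, 5.47 and 6.49 in vehicle, 7.02, 7.31 and 8.25 in VPA, and 7.69 and 8.10 in the controls. VPA stood above vehicle in every array, and the difference was 1.35 (SE 0.39). Angptl4, a secreted inhibitor of lipoprotein lipase, was 6.42, 5.68 and 5.44 in vehicle, 6.92, 6.61 and 6.93 in VPA, and 6.94 and 7.07 in the controls. Its vehicle arrays were the lowest of the 8, and VPA differed from them by 0.98 (SE 0.25).

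Angptl4 also belongs to the 34 measured genes of fatty acid oxidation and PPARA targets, of which 26 were higher with a median of 0.11. That median was -0.07 without vehicle 3. Pdk4, a kinase that restrains pyruvate dehydrogenase, was higher by 0.71 (SE 0.27) with arrays that did not overlap. Plin2, a lipid droplet coat protein, was higher by 0.45 (SE 0.34) and Fabp1, a fatty acid carrier, by 0.71 (SE 0.44), both with overlapping arrays. Of 24 genes of cholesterol and fatty acid synthesis, 17 were lower with a median of -0.07, which was 0.06 without vehicle 2. Within that list Elovl6, a fatty acid elongase, was higher by 0.46 (SE 0.19), and Insig1, a sterol-regulated brake on SREBP, was lower by 0.42 (SE 0.42).

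**Figure D3:**
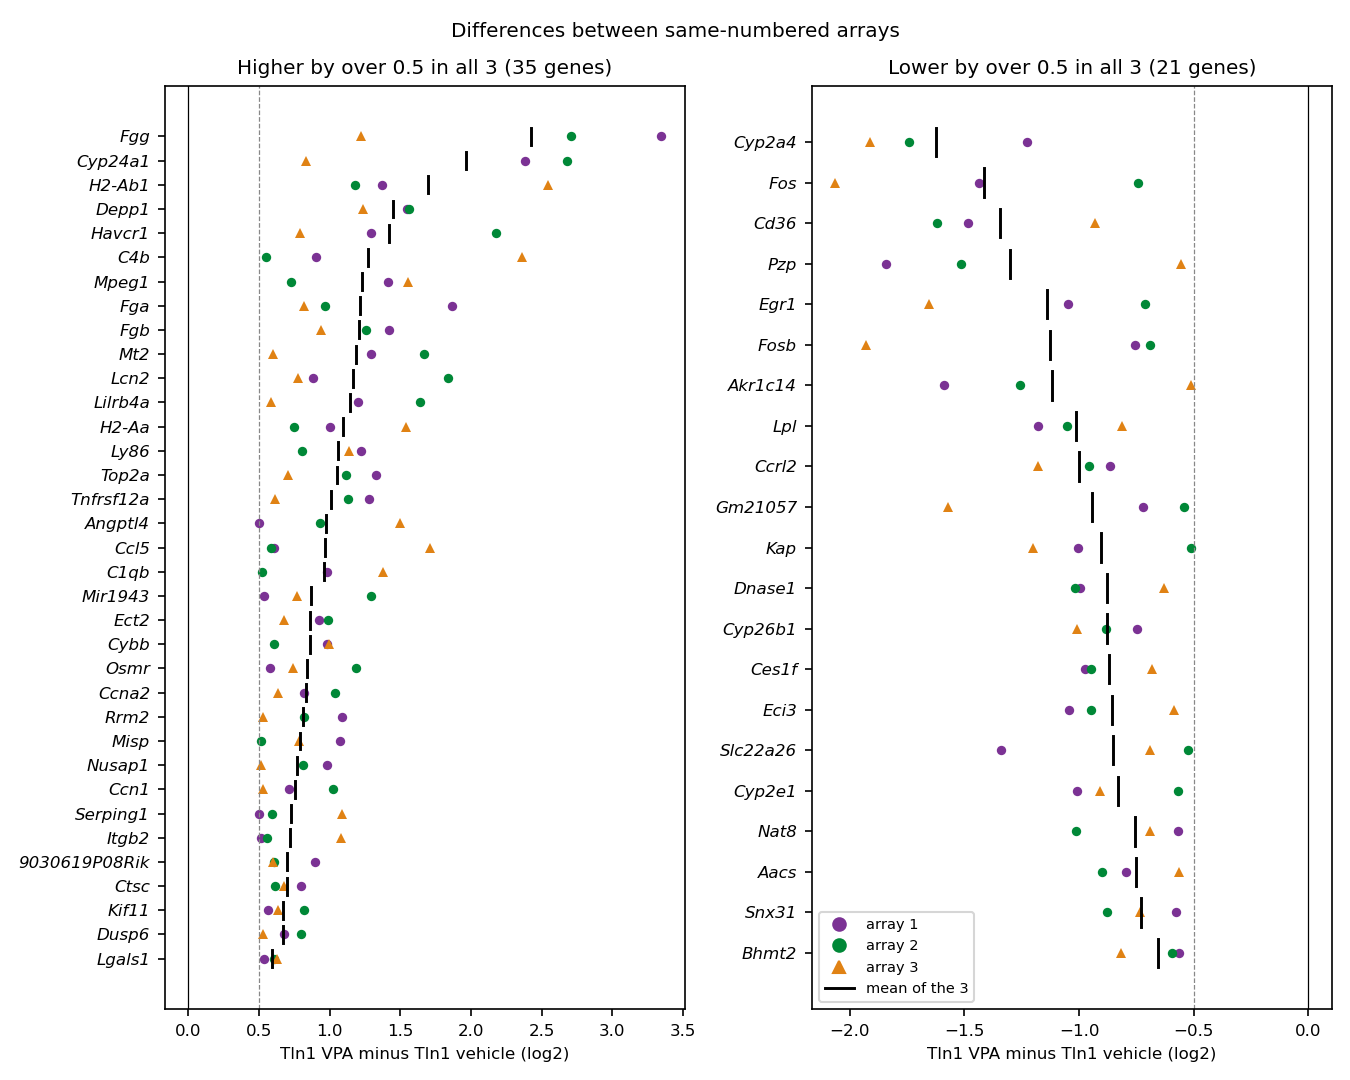
Differences between same-numbered arrays (VPA minus vehicle, log2, horizontal axis) for the 35 genes above 0.5 and the 21 genes below -0.5 in all 3 pairs. Purple and green circles are pairs 1 and 2 of the first array set, orange triangles pair 3 of the second, and black bars the mean; Fgg has the largest mean at 2.42 and Cyp2a4 the lowest at -1.63.

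A stricter count over same-numbered arrays took genes with all 3 differences beyond 0.5, a size chosen after the values were seen. It held 35 higher genes (0.158% of all) and 21 lower genes (0.0947%). Of the 35, 13 had arrays that did not overlap, and so had 6 of the 21. Over all genes the shares were 1.98% higher and 1.57% lower. Both groups were selected on these same arrays, so raised shares were built in. Fgg had the highest mean difference of all genes. With Fga and Fgb it encodes the fibrinogen chains, which injured tubule cells are known to make. Fgg was 4.32, 4.30 and 7.04 in vehicle, 7.67, 7.01 and 8.26 in VPA, and 6.93 and 6.56 in the controls. Vehicle 3 and VPA 2 overlapped, and vehicle 1 and 2 were the only arrays below the controls. The difference was 2.42 (SE 0.72), or 5.37-fold. Fga and Fgb differed by 1.22 (SE 0.41) and 1.21 (SE 0.51). Cyp24a1, the hydroxylase that inactivates vitamin D, was 9.63, 8.96 and 8.70 in vehicle, 12.02, 11.65 and 9.53 in VPA, and 7.92 and 8.58 in the controls. Its difference was 1.96 (SE 0.62), and VPA 3 stood below vehicle 1.

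Cyp2a4, a steroid hydroxylase with the near-identical copy Cyp2a5, had the lowest mean difference of the 21 lower genes. It was 7.87, 9.15 and 7.46 in vehicle, 6.64, 7.41 and 5.55 in VPA, and 6.94 and 6.40 in the controls. The arrays did not overlap, and the difference was -1.63 (SE 0.56). Pzp, which encodes a protease inhibitor of the alpha-2-macroglobulin family, was 7.76, 8.86 and 3.93 in vehicle and 5.92, 7.35 and 3.38 in VPA. Among these Tln1 arrays the array sets were further apart than the treatments, and the same pattern was seen in the Y-linked genes. With the Y-linked mean as a covariate, the median of the 21 lower genes was -0.56 instead of -0.91, and 17 of them lay nearer zero. Kap, a kidney gene induced by androgen, moved from -0.91 to -0.01 and Cyp2e1, an ethanol-oxidising cytochrome, from -0.83 to -0.22. Pzp moved from -1.30 to -0.44. The Y-linked mean was lower in the VPA array of each same-numbered pair. It was also lower in every array of the second set than in any of the first. Among the 6 Tln1 arrays its part therefore cannot be told apart from treatment and array set, and the cause of these moves was not tested. Control 1, of the first set, had a Y-linked mean of 3.57, below the Tln1 arrays of that set. In 9 of the 21 lower genes control 1 stood below all 3 vehicle arrays. Without VPA 3 the differences of Kap and Cyp2e1 turned to 0.53 and 0.14. The 35 higher genes had a median of 0.97, and of 0.87 with the covariate, and 21 of them lay nearer zero with it.

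Tnfrsf12a, the receptor of the cytokine TWEAK, was among the genes with the smallest p. It stood at 6.52, 6.10 and 6.51 in vehicle, 7.79, 7.23 and 7.12 in VPA, and 5.79 and 6.12 in the controls. The VPA arrays were the highest 3, and the difference of 1.01 (SE 0.21, limma unadjusted p = 0.00176) was 2.01-fold. Of 32 NF-kB signalling, cytokine and TNF family receptor genes, 23 were higher with a median of 0.13, and 7 had VPA arrays above all vehicle arrays (21.9%, against 1.98% of all genes). The median was 0.25 without vehicle 3 and 0.079 without vehicle 2. The 7 included Tnfrsf1a, the main TNF receptor, at 0.39 (SE 0.12), Birc3, an inhibitor of apoptosis, at 0.33 (SE 0.10), and Tnip1, a partner of the A20 deubiquitinase, at 0.24 (SE 0.10). Chemokines were split. Of 28 genes 19 were higher with a median of 0.09, and 3 were non-overlapping in each direction (10.7% each, against 1.98% of all genes higher and 1.57% lower). The median was 0.022 without VPA 1, 0.044 without vehicle 1 and 0.045 without vehicle 2, and -0.048 over the chemokines above the median gene mean. Ccl5, a T cell chemoattractant, was 5.20, 5.04 and 5.49 in vehicle and 5.80, 5.62 and 7.20 in VPA. VPA 3 stood far above the rest, and the difference was 0.97 (SE 0.39). Ccrl2, a receptor that presents the chemoattractant chemerin, was 7.08, 6.74 and 7.04 in vehicle, 6.21, 5.78 and 5.87 in VPA, and 6.54 and 5.77 in the controls. The VPA arrays lay within the range of the controls. The difference was -1.0005 (SE 0.22), 2-fold higher in vehicle than in VPA. Cxcl12, which retains CXCR4-bearing cells, was lower by 0.33 (SE 0.13), and Ccl20 and Cxcl16 were higher by 0.39 (SE 0.12) and 0.53 (SE 0.22).

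Tubular injury genes were mostly higher. Of 25 measured, 21 were higher with a median of 0.36, and 7 had arrays that did not overlap (28%, against 1.98% of all genes). Their mean was 6.87, 6.52 and 7.18 in vehicle, 7.44, 7.21 and 7.43 in VPA, and 6.69 and 6.82 in the controls. Vcam1, an adhesion receptor for leukocytes that injured tubule cells also make, was 6.14, 5.65 and 6.68 in vehicle, 7.54, 6.99 and 7.004 in VPA, and 6.31 and 6.06 in the controls. All VPA arrays were higher, and the difference was 1.02 (SE 0.27). Lcn2, which encodes the iron-siderophore carrier NGAL, was 8.19, 6.92 and 8.49 in vehicle, 9.07, 8.76 and 9.27 in VPA, and 6.42 and 6.90 in the controls. Vehicle stood above control in every array and VPA above vehicle, by 1.17 (SE 0.39). Havcr1, the tubular injury receptor KIM-1, was 5.23, 4.03 and 3.20 in vehicle and 6.53, 6.21 and 3.99 in VPA, with differences of 1.30, 2.17 and 0.79 between same-numbered arrays. VPA 3 stood below vehicle 1 and 2, and both arrays of the second set were low. Krt20 was higher by 0.43 (SE 0.16).

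The extracellular matrix list was more mixed, with 22 of 35 higher and a median of 0.09, which was -0.04 without vehicle 2. Fn1, which encodes fibronectin, was 4.88, 4.50 and 5.29 in vehicle, 6.05, 5.63 and 5.57 in VPA, and 5.18 and 4.76 in the controls, a difference of 0.86 (SE 0.24). VPA was highest throughout, but by only 0.27 in the second set. Loxl1, a collagen and elastin cross-linking enzyme, differed by 0.64 (SE 0.21), Tgfbi, a matrix protein induced by TGF-beta, by 0.82 (SE 0.32) and Col1a1 by 0.70 (SE 0.31). In Fn1, Loxl1 and Col1a1, but not in Tgfbi, the VPA arrays were all above the vehicle arrays. These were the only 3 of the list (8.57%, against 1.98% of all genes). Of the 13 lower members 1 had arrays that did not overlap (2.86% of the list, against 1.57% of all genes). It was Col15a1, a collagen gene, lower by 0.28 (SE 0.13). The talin, kindlin, integrin and focal adhesion genes had 14 of 24 higher with a median of 0.01, and Itgav, the integrin alpha v chain, was higher by 0.23 (SE 0.16).

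Myeloid and antigen presentation genes were higher, above all in VPA 3. Of 28 macrophage and myeloid markers 24 were higher with a median of 0.32. In 20 all 3 same-numbered differences were above 0 (71.4%, against 12.3% of all genes). Their mean was 4.32, 4.31 and 4.95 in vehicle, 4.77, 4.53 and 5.48 in VPA, and 4.63 and 4.68 in the controls. Vehicle 1 and 2 stood below the controls and vehicle 3 above them. Arrays did not overlap in 3 of the markers, all of them higher (10.7%, against 1.98% of all genes). Among these, Cd68, a lysosomal macrophage marker, was higher by 0.65 (SE 0.18) and Fcgr3, an Fc receptor, by 0.58 (SE 0.16). Of 10 class II MHC genes, which display peptides to CD4+ T cells, 7 were higher with a median of 0.55, and the same-numbered medians were 0.30, 0.15 and 1.25. H2-Ab1 was 7.75, 7.53 and 8.92 in vehicle, 9.12, 8.71 and 11.47 in VPA, and 8.30 and 8.67 in the controls. Its difference was 1.70 (SE 0.71), and VPA 2 stood below vehicle 3. H2-Aa differed by 1.10 (SE 0.50) and H2-DMa, a peptide-loading chaperone chain, by 0.95 (SE 0.47). H2-DMb2 was the only class II gene without overlap (10%, against 1.98% of all genes), at 0.88 (SE 0.30). Without VPA 3 the median of the class II list was 0.15, and that of the macrophage list 0.13.

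Interferon response genes gave a like picture, with 27 of 31 higher and a median of 0.36 that was 0.14 without VPA 3. Arrays did not overlap in 4 of them, all higher (12.9%, against 1.98% of all genes). Among these, Stat2, a transcription factor of type I interferon signalling, was higher by 0.37 (SE 0.12) and Ifit1, an antiviral RNA-binding protein, by 0.67 (SE 0.25). Psmb9 and Tap1, of the immunoproteasome and the peptide transporter, differed by 0.82 (SE 0.43) and 0.78 (SE 0.39). Of 18 complement genes 16 were higher with a median of 0.38. Some of them, such as C1qa and C1qc, are also on the macrophage list. C4b was 5.19, 5.26 and 5.16 in vehicle, 6.09, 5.81 and 7.52 in VPA, and 5.57 and 4.55 in the controls, a difference of 1.27 (SE 0.45). VPA 3 was again the highest. C7, a membrane attack complex component, was higher by 0.59 (SE 0.25) and C1qa by 0.59 (SE 0.25). Ifi27 and Unc93b1, an interferon-induced gene and a trafficking factor for Toll-like receptors, showed smaller and more even differences of 0.46 (SE 0.11) and 0.43 (SE 0.11). Neutrophil markers (median 0.03 over 13 genes) and T and B lymphocyte markers (0.04 over 17) differed little, and none of either list stood above the median gene mean. Retnlg was the only neutrophil gene without overlap (7.69%, against 1.98% of all genes), at 0.43 (SE 0.16). Cd79b of B cells differed by 0.25 (SE 0.17).

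**Figure D4:**
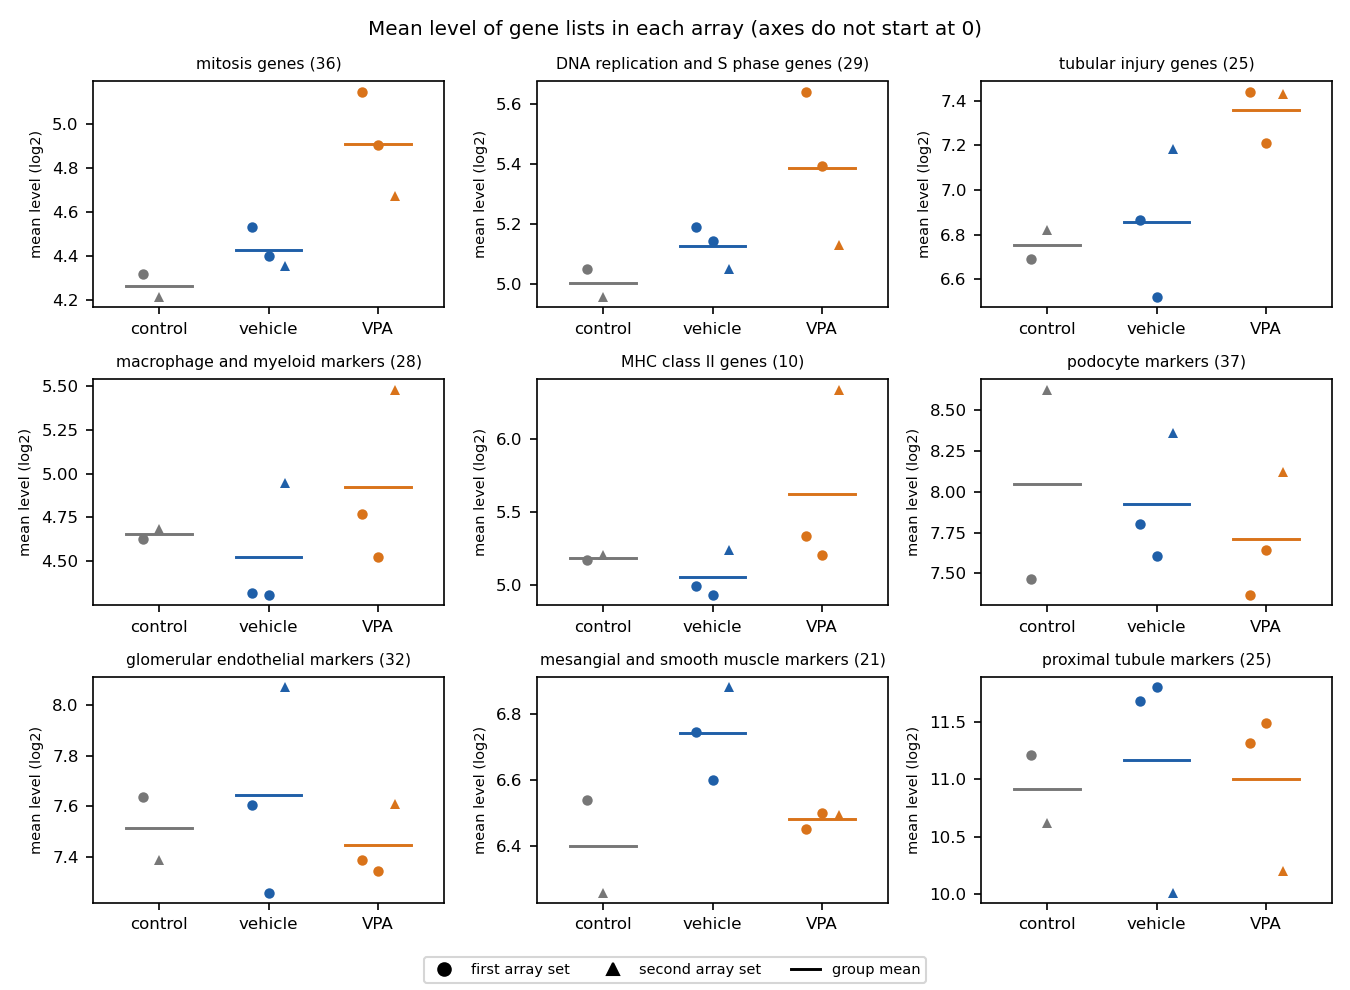
Mean log2 level (vertical axes, which do not start at 0) of 9 gene lists in each array by group, with the number of measured genes in brackets. Circles are the first array set, triangles the second, and lines group means; in the mitosis list the 3 VPA arrays (4.67 to 5.14) are above all others, while podocyte and proximal tubule markers differ more between array sets than between treatments.

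Podocyte, endothelial and mesangial markers were mostly lower with VPA, while parietal epithelial markers, given below, were mostly higher. Of the 37 podocyte markers 32 were lower with a median of -0.20, but none had arrays that did not overlap, and the same-numbered medians were -0.36, 0.03 and -0.21. The list median was -0.0046 without vehicle 3, -0.054 without VPA 1, -0.34 without vehicle 2 and -0.38 without VPA 3, so its size rested on single arrays. Their mean was 7.80, 7.60 and 8.36 in vehicle, 7.37, 7.64 and 8.12 in VPA, and 7.46 and 8.63 in the controls. The arrays of each group were spread over a range wider than the difference between groups. Synpo, the foot process actin-binding protein synaptopodin, was lower by 0.32 (SE 0.25), Sema3g, a semaphorin of podocytes, by 0.48 (SE 0.38), Npnt, the matrix ligand nephronectin, by 0.24 (SE 0.22) and Col4a4 by 0.17 (SE 0.13). The limma unadjusted p of these 4 lay between 0.237 and 0.307.

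Endothelial and mesangial markers included genes without overlap. Of 32 endothelial markers 28 were lower with a median of -0.23 (-0.25, -0.01 and -0.55 by number), and it was -0.055 without vehicle 3, -0.14 without VPA 1 and -0.44 without vehicle 2. Arrays did not overlap in 3 lower markers (9.38%, against 1.57% of all genes) and 1 higher one (3.12%, against 1.98%). Ehd3, an endocytic protein of the glomerular endothelium, was 10.78, 10.58 and 11.33 in vehicle, 9.95, 10.14 and 9.74 in VPA, and 10.50 and 9.81 in the controls. VPA lay below vehicle throughout, by 1.59 in the second set, and the difference was -0.95 (SE 0.25). Kdr, the main VEGF receptor, differed by -0.65 (SE 0.28), Tmem204 by -0.48 (SE 0.19) and Cdh5, the endothelial cadherin, by -0.45 (SE 0.22). Fabp4, a fatty acid carrier of capillaries, ran the other way, at 0.75 (SE 0.43). Of 21 mesangial and smooth muscle markers 18 were lower with a median of -0.24, and 5 had VPA arrays below all vehicle arrays (23.8%, against 1.57% of all genes). The median was -0.14 without vehicle 3 and -0.15 without VPA 2. Their mean was 6.75, 6.60 and 6.88 in vehicle, 6.45, 6.50 and 6.49 in VPA, and 6.54 and 6.26 in the controls, so that VPA lay below vehicle in every array and between the controls. Itga8, the integrin alpha 8 chain of mesangial cells, was 7.96, 7.41 and 7.29 in vehicle, 6.84, 6.95 and 6.33 in VPA, and 6.55 and 6.22 in the controls, a difference of -0.84 (SE 0.23). Sfrp2, a secreted Wnt modulator, differed by -0.82 (SE 0.33), Ptn, the growth factor pleiotrophin, by -0.57 (SE 0.23) and Pdgfrb, the PDGF receptor of pericytes, by -0.36 (SE 0.17).

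The lower genes that follow are on none of the gene lists. S1pr3, a receptor for sphingosine 1-phosphate, was 6.73, 6.65 and 6.76 in vehicle, 6.27, 6.11 and 5.85 in VPA, and 6.05 and 5.91 in the controls. Vehicle arrays were close together and above all others, and the difference was -0.64 (SE 0.13, limma unadjusted p = 0.00159). Cyp26b1, which breaks down retinoic acid, was 6.86, 7.31 and 7.46 in vehicle and 6.11, 6.43 and 6.45 in VPA, a difference of -0.88 (SE 0.21). Gata5, a transcription factor, was 6.98, 6.83 and 7.19 in vehicle, 6.33, 6.65 and 6.19 in VPA, and 6.18 and 6.21 in the controls. As in S1pr3, the vehicle arrays were the highest 3. P2ry1, an ADP receptor, differed by -0.54 (SE 0.14), Dkk2, a Wnt pathway modulator, by -0.79 (SE 0.21), Smad6, an inhibitor of BMP signalling, by -0.50 (SE 0.15) and Prex2, an activator of Rac, by -0.56 (SE 0.18). Gdf10, a TGF-beta family ligand, and Hspb7, a small heat shock protein, were lower by 0.60 (SE 0.26) and 0.65 (SE 0.22) without overlap.

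Epithelial markers outside the tuft did not share a direction. Of 15 parietal epithelial markers 13 were higher with a median of 0.26. Arrays did not overlap in 2 (13.3%, against 1.98% of all genes), Ncam1 (0.52, SE 0.20) and Dcdc2a (0.35, SE 0.16). Cd44, a marker of activated parietal cells, differed by 0.36 (SE 0.22). Of 25 proximal tubule markers 19 were lower with a median of -0.13. Their mean was 11.69, 11.80 and 10.01 in vehicle and 11.32, 11.49 and 10.20 in VPA. The first set was thus lower with VPA and the second higher, and the median turned to 0.17 without VPA 3. Slc22a6, an organic anion transporter, was lower by 0.42 (SE 0.43) and Slc5a1, a sodium-glucose transporter, higher by 0.55 (SE 0.20). Loop, distal tubule and collecting duct markers had 17 of 24 lower with a median of -0.09, which was 0.11 without vehicle 3. Of 8 erythroid markers 2 were measured, both lower, with a median of -0.18.

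Stress and drug-handling genes differed little as lists. Valproate-handling and xenobiotic response genes had 9 of 19 higher with a median of -0.00. Their lowest member, Ugt2b37, a glucuronosyltransferase, differed by -1.29 (SE 1.08), and in the second set by 0.04. NRF2 antioxidant genes had 10 of 16 higher with a median of 0.02, and Nqo1, a quinone reductase, was higher by 0.41 (SE 0.33). Unfolded protein and heat shock genes had 16 of 24 higher with a median of 0.05, which was -0.11 without vehicle 3, and Herpud1, an endoplasmic reticulum stress gene, was higher by 0.41 (SE 0.19). Targets of p53 had 10 of 18 higher with a median of 0.02. Plk3, a polo-like stress kinase of that list, was 6.70, 5.92 and 6.54 in vehicle, 6.99, 6.96 and 7.33 in VPA, and 8.06 and 7.83 in the controls. VPA stood between vehicle and control in every array, and the difference was 0.71 (SE 0.22). Circadian clock genes had 12 of 17 lower with a median of -0.08, which was 0.05 without VPA 3, and Cry1, a repressor of the clock, was higher by 0.34 (SE 0.13). The 3 Y-linked genes differed by -0.53 to -0.91 and Xist, the RNA of X inactivation, by 0.87. Xist was 9.66, 7.38 and 10.94 in vehicle, 10.14, 9.97 and 10.47 in VPA, and 9.71 and 10.67 in the controls. Vehicle 1 and VPA 2 thus held Xist at 9.66 and 9.97 beside a Y-linked mean of 5.77 and 5.83. Whether an array mixed material of both sexes was not tested.

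**Figure D5:**
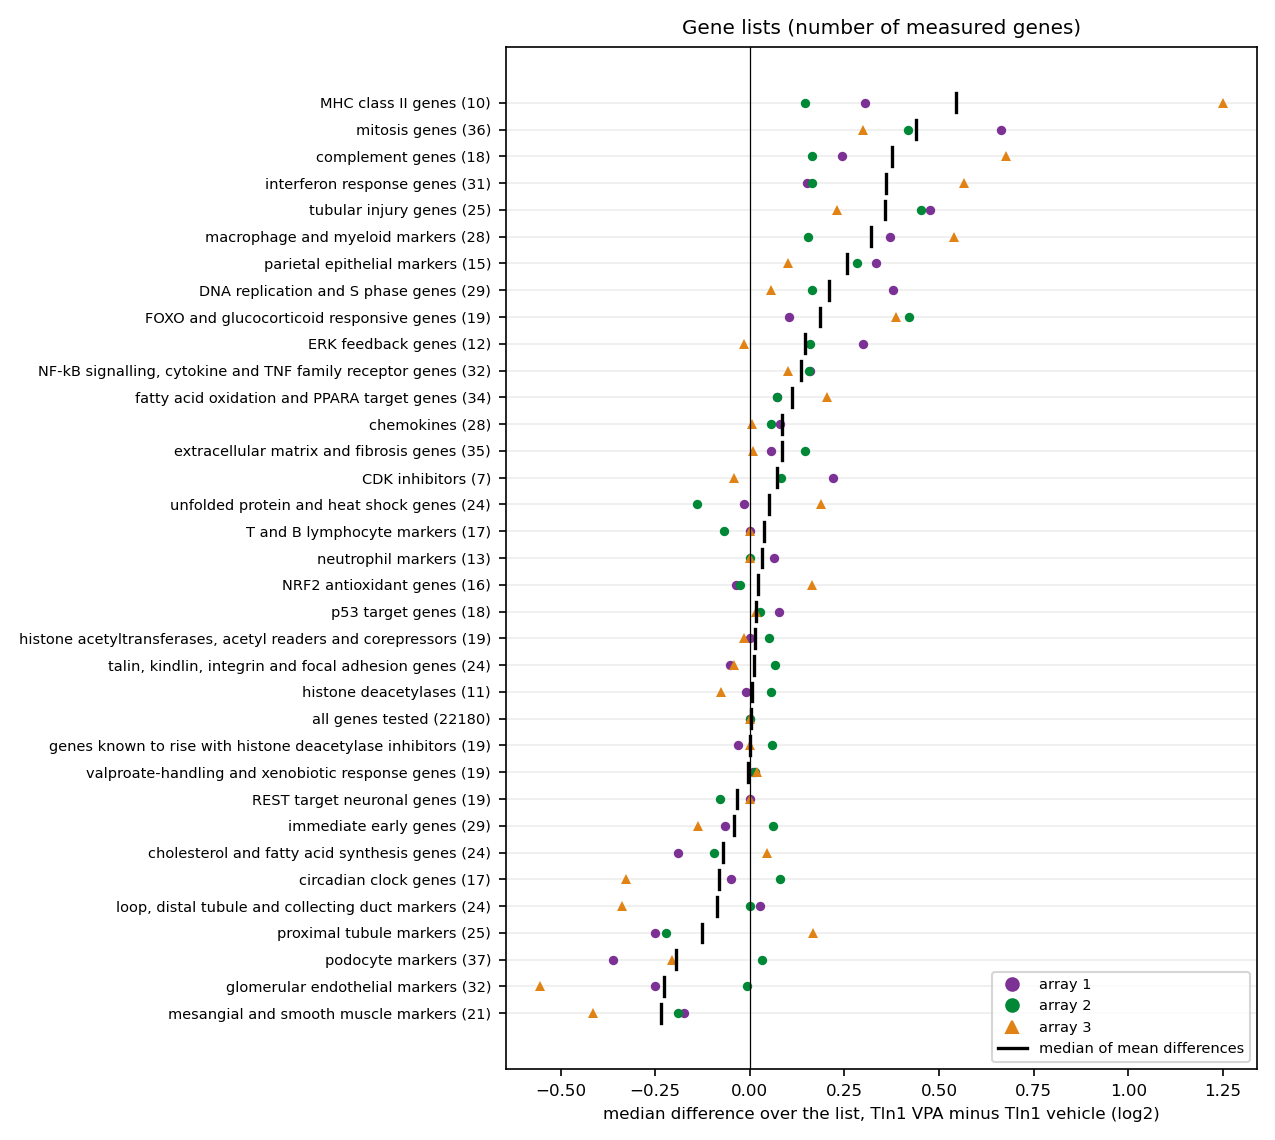
Median difference over each gene list (VPA minus vehicle, log2, horizontal axis), with the number of measured genes in brackets and 2 lists of under 5 genes left out. Purple and green circles are same-numbered arrays 1 and 2, orange triangles array 3, and black bars the median of the mean differences; MHC class II genes stand at 0.55 with 1.25 for array 3, mitosis genes at 0.44, and mesangial and smooth muscle markers at -0.24.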

How the data were processed

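RNA of kidney glomeruli was hybridised to Affymetrix arrays, 2 of control mice, 3 of Tln1 mice given vehicle and 3 of Tln1 mice given VPA. The authors deposited log2 values for 41345 probe sets. RMA and limma are named in the submitters' processing notes, and their versions, the genome build and the annotation are not given there. Scanner files were not analysed here, so signal over background is unknown, and precision rests on how many arrays there are.

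Of the probe sets 23521 carried 1 gene symbol, 1814 several and 16010 none. Each gene was represented by its probe set with the highest mean over the 8 arrays, which left 22180 genes. Groups came from the labels. The difference, VPA minus vehicle, was fitted with limma 3.58.1 (R 4.3.3; lmFit and eBayes on all 8 arrays, two-sided, Benjamini-Hochberg over all genes, threshold 0.05), after a check on simulated data. Figures were drawn with Python 3.11.15 and matplotlib 3.10.9. The labels state no pairing. Deviations from the group means correlated at 0.570, 0.609 and 0.787 between same-numbered arrays. They correlated at 0.510 and 0.515 between the other arrays of the first set and at -0.618 to -0.692 across sets. Array 3 of each group is from the other set, so the signs reflect the sets and do not show pairing by number. Within the first set same-numbered arrays correlated only slightly more than the others. The numbers were also used as a block. With the array set as the block instead, limma counted 1205 genes (5.43%) at an unadjusted p below 0.05.

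Genes named were Tln1, Egr1 and Hdac1 to Hdac11, 15 in each direction with the smallest p (8 in the replicate block fit) among genes above the median level without overlap, and up to 5 per list with the smallest p. Ccn1, Ier2, Fga, Fgb, Cyp24a1, Havcr1, Pzp, Kap and Ces1f fall outside this rule and were chosen after their values were seen. The members and the 36 lists (821 distinct genes, 744 measured) were chosen with earlier results of these data known, so their counts are descriptions. Some genes are on several lists, so the lists are not separate lines of evidence. Lcn2 is on the tubular injury list and the FOXO and glucocorticoid list. Clu is on the deacetylase inhibitor and tubular injury lists. Alternatives changed the row per gene, filter, scaling, variance model, covariates and arrays used.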

Additional observations from a re-analysis of the deposited data

How the results depend on the processing

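The count of genes at an adjusted p below 0.05 was 0 under every alternative run, the replicate block included, whose count at an unadjusted p below 0.05 was 1355. The smallest adjusted p was 0.182, with array weights. Of 3696 values of 155 genes under the alternatives, 3669 kept their direction, and 27, in 10 genes, did not. Causes were not tested. The share that kept its direction was partly built in. Many genes were chosen for arrays without overlap or for large same-numbered differences. A gene without overlap cannot change sign when 1 array is left out. Trended or robust eBayes, leaving out a control and the replicate block do not alter the difference itself. The share is therefore no measure of robustness. Array number limits all of these values, and the array sets mean that leaving out 1 array also unbalances the sets.

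Non-overlapping genes numbered 922 higher and 820 lower over every probe set, 276 and 157 over genes above the median level, and 476 and 539 with arrays centred on their medians. Genes of 1 sign in all 3 same-numbered differences numbered 4826 higher and 4302 lower over every probe set, 1715 and 1113 above the median level, 2367 and 4109 after centring, and 2934 and 3389 after quantile normalization. Leaving out 1 array, so that fewer arrays have to stand apart, gave 704 to 2536 higher and 686 to 2737 lower without overlap. Leaving out 1 pair gave 4412 to 5937 higher and 4208 to 5342 lower of 1 sign.

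Above the median level, list medians were -0.10 for REST targets, 0.54 for macrophage markers, 0.22 for NF-kB genes and -0.048 for chemokines. The valproate-handling median was 0.0050 with averaged probe sets, 0.043 over every probe set, -0.056 above the median level, -0.014 after centring and -0.0094 after quantile normalization. Without 1 array, list medians ran from -0.034 to 0.089 for deacetylase inhibitor genes, -0.058 to 0.072 for REST targets, -0.17 to 0.12 for immediate early genes, -0.0027 to 0.35 for ERK feedback genes and -0.54 to 0.17 for proximal tubule markers. They ran from 0.13 to 0.55 for macrophage markers, -0.025 to 0.084 for neutrophil markers, 0.079 to 0.25 for NF-kB genes, 0.022 to 0.10 for chemokines, 0.27 to 0.50 for tubular injury genes and -0.042 to 0.12 for matrix genes. The ranges were -0.26 to 0.058 for cholesterol and fatty acid synthesis, -0.071 to 0.27 for fatty acid oxidation, -0.051 to 0.090 for valproate handling, -0.14 to 0.17 for NRF2 genes, -0.039 to 0.14 for p53 targets and 0.21 to 0.38 for FOXO and glucocorticoid genes.

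Hdac2 stood at -0.0042 after centring, -0.0079 after quantile normalization, -0.019 with array weights, -0.022 with the Y-linked covariate and -0.057 in the first array set alone, which is also its value with the replicate block and without pair 3. Hdac8 stood at -0.14 with array weights and at -0.13 in the first set alone and with the replicate block without pair 3. The Y-linked covariate gave 0.044 for Eif2s3y, 0.087 for Kdm5d and 0.035 for Ces1f. Without 1 array the ranges were -0.019 to 0.14 for Hdac1, -0.067 to 0.044 for Hdac2, -0.12 to 0.16 for Hdac8, -1.75 to 0.14 for Cyp2e1, -2.21 to 0.050 for Uty and -2.20 to 0.28 for Eif2s3y. They were -1.49 to 0.26 for Kdm5d, -0.11 to 1.68 for Xist, -2.30 to 0.47 for Ces1f and -2.19 to 0.53 for Kap.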
